A study of Homo sapiens with 12 samples.

Results

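The BCL2 family was followed as 10 genes in 4 groups of cultured lung adenocarcinoma cells. They were the BH3-only genes BMF, BCL2L11, BBC3, PMAIP1, BIK and BID, the effector genes BAX and BAK1, and the anti-apoptotic genes BCL2L1 and MCL1. Members were chosen by gene symbol, and every probe with one of these symbols was taken. The 10 genes are 10 of the 20046 genes named on the array, and 22 of its 47323 probes carry their symbols. Of these 22 probes, 17 were kept, meaning that they were detected (detection p under 0.01) on at least 3 of the 12 arrays, and each of the 10 genes had at least 1 kept probe.

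BCL2-family proteins decide whether the outer mitochondrial membrane is opened, the step that releases cytochrome c and starts caspase activation. BAX and BAK1 form the openings, BCL2L1 (BCL-XL) and MCL1 hold them back, and BH3-only proteins respond to stress by binding the anti-apoptotic proteins or by activating BAX and BAK1 directly. In lung cancers driven by mutant EGFR, BH3-only proteins, BCL2L11 (BIM) and BMF among them, are known for their part in the cell death that follows loss of EGFR signalling.

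RNA came from HCC827, an established human lung adenocarcinoma line, in 2 derivatives measured on 1-colour Illumina bead arrays. HCC827-Del carries the EGFR deletion labelled L747-S752, and HCC827-Del-TM carries the same EGFR deletion together with the substitution T790M, so all groups share the deletion. Controls of each derivative received DMSO for 72 h. Treated cultures received 2.5 µM decitabine, which inhibits DNA methyltransferases, and 1 µM vorinostat, which inhibits histone deacetylases, over the same time. The 4 groups had 3 biological replicates each, no group received a single drug, and the labels do not say whether either derivative is 1 clone.

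The 12 arrays differed little within groups. Replicates correlated at 0.995 to 0.996 (Pearson's r of log2 intensities over genes), and arrays of different groups at 0.931 to 0.972. EGFR mRNA showed log2 differences of -0.01 and 0.09 for treatment in HCC827-Del and HCC827-Del-TM, and -0.01 and 0.09 between the lines without and with drugs. CDKN1A, which encodes the cell-cycle inhibitor p21 and is a usual responder to histone deacetylase inhibitors, had treatment effects of 2.79 and 2.27. Of 10 lung epithelial marker genes, 8 were detected on all 12 arrays. Their summed intensity was 28264 to 30382 in HCC827-Del control, 21738 to 23286 in HCC827-Del treated, 26056 to 26411 in HCC827-Del-TM control and 28555 to 29838 in HCC827-Del-TM treated. By gene, 1 of the 10 was called higher and 8 lower after treatment in HCC827-Del (median log2 difference -0.84), against 24.4% and 25.8% of all genes tested. In HCC827-Del-TM 3 were called higher and 4 lower (median -0.10), against 21.2% and 23.5%. By their leading probes, the surfactant genes SFTPB and SFTPA1 were detected on no treated array, and so passed the filter through control arrays alone. Treatment lowered SFTPB at least 3.14-fold in HCC827-Del and 8.17-fold in HCC827-Del-TM. For SFTPA1 the bounds were 26.1-fold and 10.4-fold. The part of these markers in any result was not tested. Of the markers of other cell types, those detected on no array were CD3E and PTPRC of leukocytes, CDH5 and KDR of endothelium and COL3A1 and DCN of fibroblasts. The other markers of these lists were detected on at least 1 array. Of all leukocyte, endothelial and fibroblast or smooth muscle markers, 2 of 7, 0 of 4 and 2 of 6 were detected on every array. The leukocyte sum was 1629 to 1705 in HCC827-Del control, 1986 to 2151 in HCC827-Del treated, 1830 to 1981 in HCC827-Del-TM control and 2402 to 2592 in HCC827-Del-TM treated. The endothelial sum was 154 to 168 in HCC827-Del treated and 81 to 94 in the other groups, and the fibroblast sum lay between 213 and 331 on all arrays. Of the leukocyte, endothelial and fibroblast or smooth muscle markers with a kept probe, 2 of 4, 2 of 2 and 2 of 3 were called higher after treatment in HCC827-Del, and 3 of 4, 0 of 2 and 0 of 3 in HCC827-Del-TM. Called lower were 1 of 4, 0 of 2 and 1 of 3 in HCC827-Del, and 1 of 4, 0 of 2 and 0 of 3 in HCC827-Del-TM. The shares of all genes were those given above. PECAM1, VWF and DES were detected only on the 3 HCC827-Del treated arrays and so passed the filter through that group alone. Their being called in HCC827-Del and not in HCC827-Del-TM was largely set by that filter, so these counts are no result. CD79A was lower by 0.87 in HCC827-Del and at least 1.63-fold in HCC827-Del-TM, and COL1A1 by 0.43 in HCC827-Del (adjusted p = 0.000133, 0.000154 and 0.0073, limma). In HCC827-Del no control array detected the leading probes of CD3D, VWF, DES or PECAM1. CD3D, VWF and DES were at least 5.8-fold, 2.74-fold and 1.73-fold higher after treatment. PECAM1 was called higher (adjusted p = 0.00821, limma) but was too dim for a fold. CD14 and ACTA2 were 1.57 and 0.57 higher there (adjusted p = 3.02e-08 and 0.000719, limma). In HCC827-Del-TM the higher ones were CD3D, CD14 and CD68, at 1.58, 1.05 and 0.29. The part of these other cell types' markers in any result was not tested either.

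Values below are log2 intensities after background correction and quantile normalization, and differences between groups are log2 fold changes. Levels of different probes are not compared with each other, since probes differ in brightness. The test was limma's moderated test with Benjamini-Hochberg adjustment over the 15667 kept probes with 1 gene symbol, and a gene is called when its brightest kept probe, its leading probe, has an adjusted p under 0.05. The arrays read the RNA of whole cultures, so that fewer cells of a type and less RNA per cell cannot be told apart.

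BMF, which encodes a BH3-only protein that binds dynein light chains and is freed upon loss of anchorage or of survival signals, moved in opposite directions in the 2 lines. Its leading probe read 7.58, 7.35 and 7.58 in HCC827-Del control and 5.99, 5.71 and 5.78 in HCC827-Del treated. The same probe read 8.63, 8.70 and 8.75 in HCC827-Del-TM control and 9.68, 9.59 and 9.43 in HCC827-Del-TM treated. No group overlapped another, and the order of the groups was HCC827-Del treated, HCC827-Del control, HCC827-Del-TM control and HCC827-Del-TM treated from lowest to highest. BMF fell by 1.68 on the log2 scale in HCC827-Del (SE 0.0996, adjusted p = 1.15e-08, n = 3 per group, limma), which is 3.2-fold. In HCC827-Del-TM it rose by 0.87 (SE 0.0996, adjusted p = 9.62e-06, limma), which is 1.83-fold. The sizes depended on the processing. Over 23 alternatives of processing or left-out arrays these 2 effects ran from -1.77 to -0.95 and from 0.76 to 0.94. Each neighbouring pair in the order differed beyond its spread, since BMF was also 1.19 higher in HCC827-Del-TM control than in HCC827-Del control (adjusted p = 6.45e-07, limma).

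Between the treated lines the BMF difference was 3.74 on the log2 scale (95% interval 3.53 to 3.96, adjusted p = 2.09e-12, limma), a 13.4-fold higher level in HCC827-Del-TM. That value ran from 2.64 to 3.84 over 23 alternatives. The difference between the BMF treatment effects in the 2 lines was 2.55 (SE 0.141, 95% interval 2.25 to 2.86, adjusted p = 1.8e-08, limma). By size, this difference was the 3rd highest of the 11808 genes tested. BMF also took the 25th lowest place in the treatment effect of HCC827-Del and the 24th highest in the contrast of the treated lines. Its rise in HCC827-Del-TM took the 464th place from the highest. These places describe a gene that was chosen with earlier results of these data known.

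**Figure D1:**
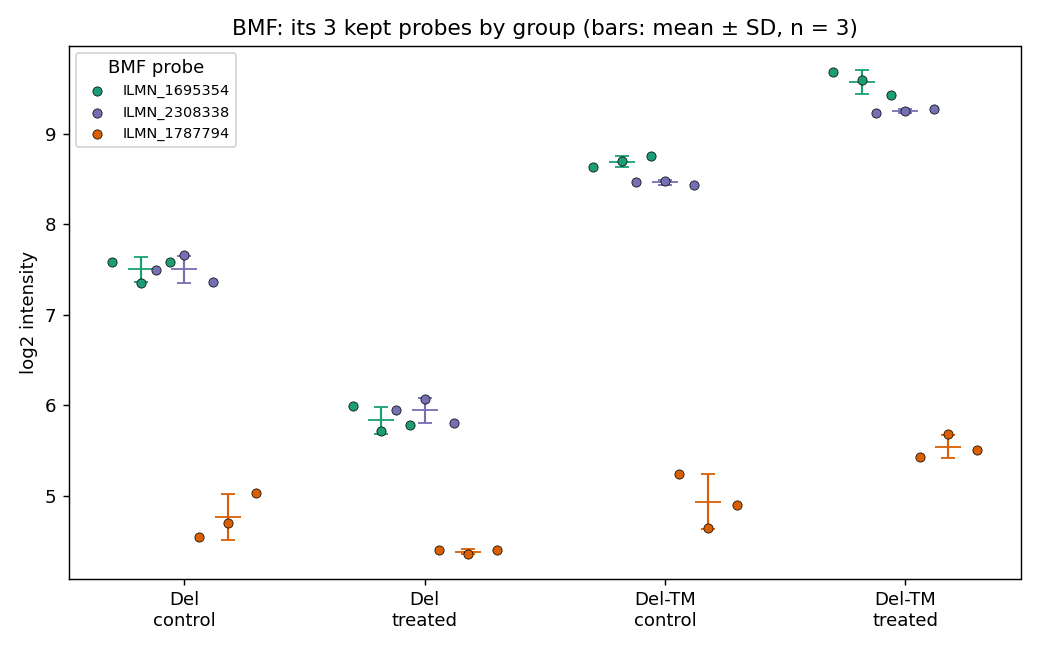
Log2 intensity of the 3 kept BMF probes (vertical axis) in the 4 groups (horizontal axis), with a point per array and the mean ± SD (n = 3) as bars. Both bright probes are lowest in HCC827-Del treated (5.71 to 6.07) and highest in HCC827-Del-TM treated (9.23 to 9.68), while the dim probe ILMN_1787794 stays between 4.35 and 5.68. Heights of different probes are not comparable.

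The second bright BMF probe, ILMN_2308338, gave -1.56 in HCC827-Del, 0.79 in HCC827-Del-TM, 0.95 between the control lines and 3.30 between the treated lines, all called. Its difference of treatment effects was 2.35 (adjusted p = 1.54e-08, limma). The third kept probe, ILMN_1787794, was detected on 5 arrays, among them all 3 of HCC827-Del-TM treated and none of HCC827-Del treated. It was at least 1.68-fold higher in treated HCC827-Del-TM than in treated HCC827-Del (adjusted p = 1.11e-05, limma) and rose by 0.61 in HCC827-Del-TM, where 1 of 3 control arrays detected it. In HCC827-Del it was detected on 1 control array, with means of 4.76 and 4.38 for control and treated (adjusted p = 0.047), a call kept in 8 of 20 alternatives. Among single arrays it ended without HCC827-Del control replicate 2 or 3 (adjusted p = 0.0693 and 0.205), any HCC827-Del treated array (0.0883 to 0.108), HCC827-Del-TM control replicate 3 (0.0572) or HCC827-Del-TM treated replicate 1 or 3 (0.0516 and 0.056). It also ended without background correction (adjusted p = 0.0544), with the authors' values (0.0571) and without the detection filter (0.0873). The fourth BMF probe was detected on 1 array and was not tested. The 2 bright probes therefore carry the BMF result.

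The RefSeq table (GRCh38.p14) gives 2 BMF promoters, and these are shown because they differ in CpG content, the site at which DNA methyltransferases act, in a gene whose mRNA moved in opposite directions after treatment with an inhibitor of those enzymes. Both lie on the minus strand of chromosome 15, at chr15:40108830-40109129 (upstream) and chr15:40106917-40107216 (downstream). Capitals mark each CG.
BMF upstream promoter: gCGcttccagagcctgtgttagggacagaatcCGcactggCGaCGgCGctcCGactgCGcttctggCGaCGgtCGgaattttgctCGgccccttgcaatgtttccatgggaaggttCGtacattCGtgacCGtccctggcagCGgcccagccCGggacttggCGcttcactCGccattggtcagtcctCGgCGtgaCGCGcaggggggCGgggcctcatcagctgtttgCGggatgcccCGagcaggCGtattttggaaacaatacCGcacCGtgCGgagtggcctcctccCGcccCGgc
BMF downstream promoter: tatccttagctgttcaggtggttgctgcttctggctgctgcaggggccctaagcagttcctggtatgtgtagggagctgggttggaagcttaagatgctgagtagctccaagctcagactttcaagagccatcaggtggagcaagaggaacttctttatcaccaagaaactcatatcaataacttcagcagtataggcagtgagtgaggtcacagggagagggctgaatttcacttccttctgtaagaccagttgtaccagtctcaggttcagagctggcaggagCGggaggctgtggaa
The upstream window holds 31 CG and the downstream window 1, against a median of 14 over the 35116 promoters of the table. Of all promoters, 79.3% held fewer CG than the upstream window and 4.0% fewer than the downstream one. Methylation was not measured here, and the arrays do not say which promoter gave the BMF signal.

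The other motifs were searched by their letters on both strands, with overlapping matches counted. GGGCGG, the core of the SP1 motif, was found 2 times in the upstream BMF window and in 45.0% of all promoters. TGACG, part of the CRE motif of ATF and CREB factors, was found 1 time there and in 24.6% of promoters. GTAAACA, the FOXO motif, was in 3.42% of promoters and in neither BMF window. Among the 14 promoters listed for 8 of the 10 members, only that of BCL2L11 held GTAAACA, with 1 match. BCL2L11 is a known FOXO target.

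By a fixed measure, the root-mean-square difference over the 12 arrays between leading probes each centred on its own mean, the genes most like BMF were PIGR (0.235), DDIT4 (0.343), AGR2 (0.456), FAM20A (0.486) and ABCA12 (0.496), against a median of 1.43 over genes. PIGR encodes the polymeric immunoglobulin receptor of secretory epithelia, and DDIT4 an inhibitor of mTORC1 signalling. PIGR had group means of 5.80, 4.48, 7.24 and 8.03 in HCC827-Del control, HCC827-Del treated, HCC827-Del-TM control and HCC827-Del-TM treated. For DDIT4 the means were 11.40, 9.76, 12.36 and 12.70 in the same order. AGR2, a protein disulfide isomerase of mucus-secreting cells, had means of 8.81, 8.14, 10.98 and 11.16. The nearest genes depended on the values used, since with the authors' deposited log2 values these 5 took places 11, 6, 28, 116 and 39, and none of them was among the nearest 5.

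BIK, a BH3-only gene whose protein sits at the endoplasmic reticulum, rose in both lines. Its probe read 7.96, 8.13 and 8.08 in HCC827-Del control against 9.23, 8.99 and 9.22 after treatment. In HCC827-Del-TM it read 8.21, 8.18 and 8.18 without and 9.31, 9.39 and 9.39 with the drugs. All 6 treated arrays lay above all 6 control arrays. The rise was 1.09 in HCC827-Del (SE 0.0821, adjusted p = 1.32e-07, limma), which is 2.13-fold, and 1.17 in HCC827-Del-TM (adjusted p = 9.75e-08, limma), which is 2.26-fold. The difference of the effects was 0.08 (95% interval -0.17 to 0.33, adjusted p = 0.598, limma). Between the treated lines BIK was 0.22 higher in HCC827-Del-TM (adjusted p = 0.035, limma), a call that ended without HCC827-Del treated replicate 2 (0.14, adjusted p = 0.171), without HCC827-Del-TM treated replicate 2 or 3 (adjusted p = 0.0885 and 0.0855) and with arrays scaled to a common median (0.06, adjusted p = 0.668). The control lines did not differ past the threshold (0.13, 95% interval -0.05 to 0.31).

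PMAIP1 (NOXA), a BH3-only gene whose protein binds MCL1, also rose in both lines by its leading probe. The probe read 8.26, 8.27 and 8.23 in HCC827-Del control and 8.73, 9.18 and 8.75 after treatment. In HCC827-Del-TM the readings were 8.21, 8.35 and 8.40 without and 8.96, 8.70 and 9.02 with the drugs. Control and treated arrays did not overlap in either line. The rise was 0.63 in HCC827-Del (SE 0.119, adjusted p = 0.000587, limma) and 0.57 in HCC827-Del-TM (SE 0.119, adjusted p = 0.00148, limma). Its dimmer probe, ILMN_1689525, gave 0.23 (adjusted p = 0.108) and 0.26 (adjusted p = 0.0716), not past the threshold. The lines did not differ past the threshold, at 0.07 without drugs (95% interval -0.19 to 0.32) and 0.01 with them (95% interval -0.25 to 0.26).

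The PMAIP1 promoter is shown beside those of BCL2L1 because both genes rose in both lines, while their promoters differ in CpG content. They lie at chr18:59899746-59900045 (plus strand) for PMAIP1, and at chr20:31723914-31724213 and chr20:31722819-31723118 (minus strand) for BCL2L1, in GRCh38.p14. Capitals again mark each CG.
PMAIP1 promoter: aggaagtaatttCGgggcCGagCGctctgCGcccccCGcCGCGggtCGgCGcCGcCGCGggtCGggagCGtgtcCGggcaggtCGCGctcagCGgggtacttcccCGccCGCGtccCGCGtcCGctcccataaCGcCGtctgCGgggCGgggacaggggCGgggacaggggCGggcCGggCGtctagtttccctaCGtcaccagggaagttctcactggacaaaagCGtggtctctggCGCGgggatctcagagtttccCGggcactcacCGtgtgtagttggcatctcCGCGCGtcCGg
BCL2L1 upstream promoter: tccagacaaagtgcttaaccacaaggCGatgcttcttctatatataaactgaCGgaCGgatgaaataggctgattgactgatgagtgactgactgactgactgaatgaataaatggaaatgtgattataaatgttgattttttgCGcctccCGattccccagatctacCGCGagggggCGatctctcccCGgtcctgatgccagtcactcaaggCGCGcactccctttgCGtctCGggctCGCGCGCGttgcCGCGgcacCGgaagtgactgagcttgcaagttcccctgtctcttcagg
BCL2L1 downstream promoter: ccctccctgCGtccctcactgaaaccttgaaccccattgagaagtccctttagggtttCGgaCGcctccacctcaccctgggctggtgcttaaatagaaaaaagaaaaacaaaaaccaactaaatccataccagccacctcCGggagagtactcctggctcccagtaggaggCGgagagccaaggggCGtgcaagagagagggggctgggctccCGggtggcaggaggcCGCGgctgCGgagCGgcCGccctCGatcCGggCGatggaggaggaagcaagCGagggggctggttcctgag
The PMAIP1 window holds 42 CG, more than 94.2% of promoters, while the BCL2L1 windows hold 20 and 16. GGGCGG was found 4 times in the PMAIP1 window, 0 times in the upstream and 1 time in the downstream BCL2L1 window. Over the other members with a listed promoter, apart from BMF as given above, the number of CG ran from 5 in BBC3 to 39 in BCL2L11, with 38 in BAX. Of these, BAX fell in HCC827-Del-TM, while BBC3 and BCL2L11 were called in neither treatment with quantile normalization. Methylation was not measured, and a relation of CG content to the treatment effects was not tested.

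**Figure D2:**
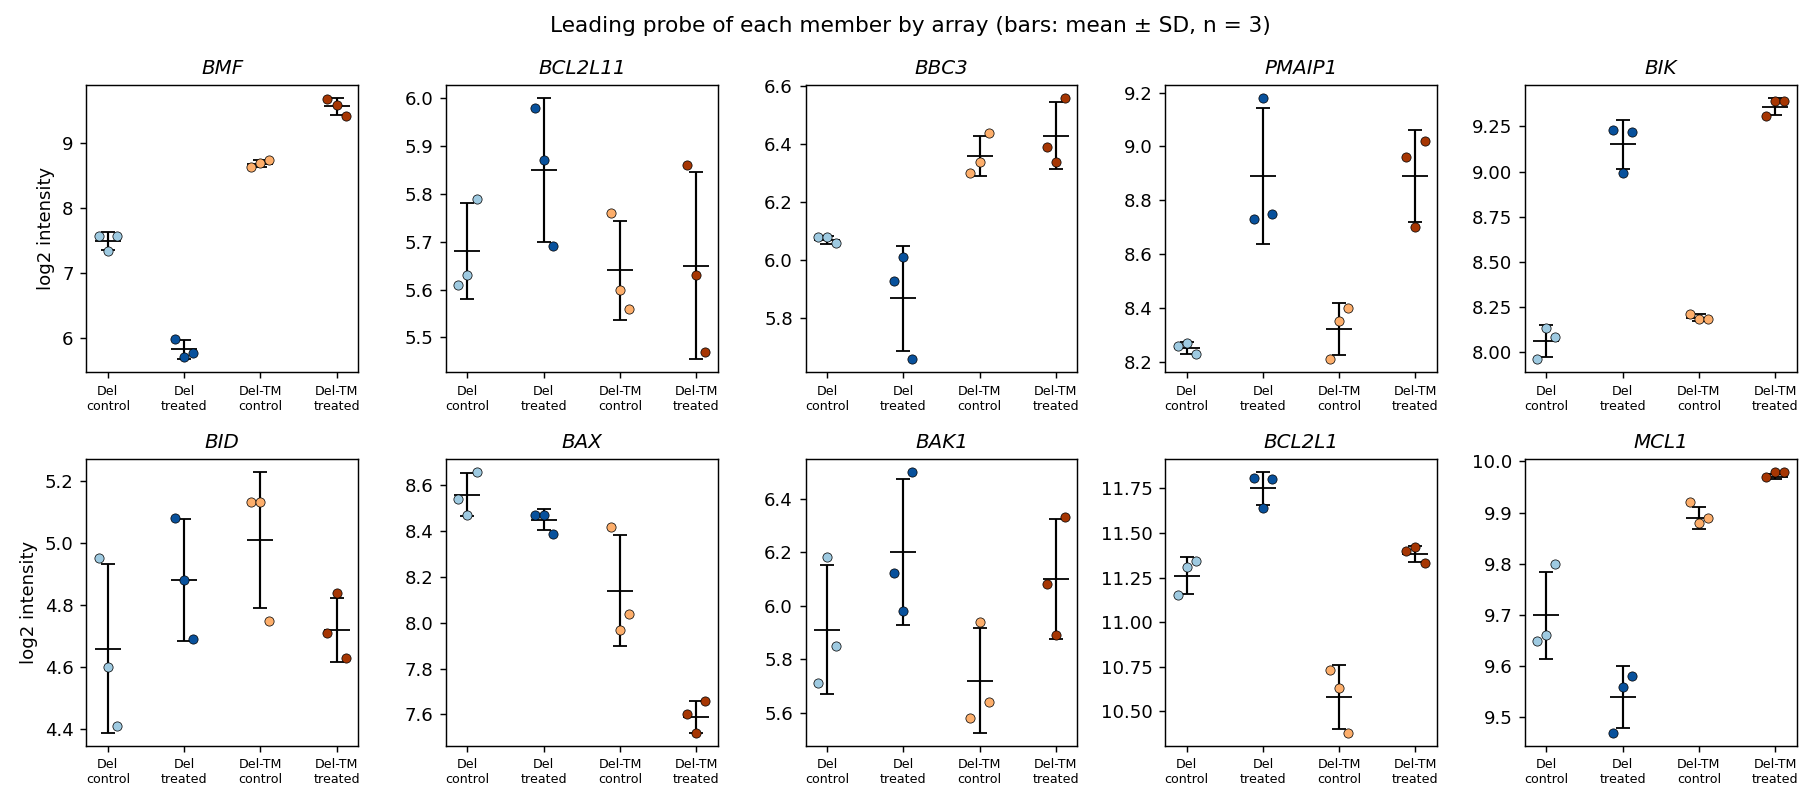
Log2 intensity of the leading probe of each of the 10 members (vertical axes, scaled per gene) by group, with a point per array and the mean ± SD (n = 3) as bars. BIK, PMAIP1 and BCL2L1 are higher in the treated arrays of both lines, BMF falls in HCC827-Del and rises in HCC827-Del-TM, and BAX is lowest in HCC827-Del-TM treated at 7.52 to 7.66.

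BBC3 (PUMA), a BH3-only gene known as a p53 target, was called between the lines and for neither treatment. Its probe read 6.08, 6.08 and 6.06 in HCC827-Del control, 5.93, 6.01 and 5.66 in HCC827-Del treated, 6.30, 6.34 and 6.44 in HCC827-Del-TM control and 6.39, 6.34 and 6.56 in HCC827-Del-TM treated. All 6 HCC827-Del-TM arrays lay above all 6 HCC827-Del arrays. BBC3 was 0.56 higher in HCC827-Del-TM with drugs (SE 0.0945, adjusted p = 0.000156, limma). Without drugs the difference was 0.28 (adjusted p = 0.0339, limma), but this call ended on leaving out any 1 of the 3 HCC827-Del control arrays (adjusted p = 0.068 to 0.0813) or HCC827-Del-TM control replicate 2 or 3 (adjusted p = 0.0656 and 0.109). Treatment gave -0.21 in HCC827-Del (95% interval -0.41 to -0.01, adjusted p = 0.0829) and 0.07 in HCC827-Del-TM (95% interval -0.14 to 0.27, adjusted p = 0.599).

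BCL2L11 (BIM), which encodes a BH3-only protein controlled by ERK signalling, was called in no comparison with all arrays and quantile normalization, but 2 of its comparisons passed the threshold under other settings. Its leading probe ran from 5.47 to 5.98 over the 12 arrays, and the groups overlapped. Treatment effects were 0.17 in HCC827-Del (95% interval -0.07 to 0.40) and 0.01 in HCC827-Del-TM (95% interval -0.22 to 0.25). Scaling to a common median changed this for HCC827-Del to 0.34 (adjusted p = 0.0232), and cyclic loess to 0.29 (adjusted p = 0.0422). The contrast of the treated lines gave -0.20 (95% interval -0.43 to 0.04, adjusted p = 0.139), and it passed with median scaling (-0.43, adjusted p = 0.00329), with cyclic loess (-0.27, adjusted p = 0.0458) and without HCC827-Del-TM treated replicate 1 (-0.30, adjusted p = 0.0338). Of its other probes, 1 was detected on 3 arrays and gave effects of -0.13 and 0.03, and 1 was detected on none.

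BID, whose protein is cut by caspase-8 and carries death-receptor signals to the mitochondrion, was close to background. Its kept probe was detected on 4 of 12 arrays, 2 of HCC827-Del treated and 2 of HCC827-Del-TM control, and ran from 4.41 to 5.13. The other 2 BID probes were detected on no array. No comparison was called for BID with all arrays and quantile normalization, but the calls depended on the setting. The difference of treatment effects was -0.51 (95% interval -0.95 to -0.07, adjusted p = 0.0631), and it passed with median scaling (-0.55, adjusted p = 0.0399) and without HCC827-Del control replicate 1 (-0.66, adjusted p = 0.0153), HCC827-Del treated replicate 3 (-0.59, adjusted p = 0.0401) or HCC827-Del-TM control replicate 3 (-0.64, adjusted p = 0.0241). Without HCC827-Del control replicate 1, treatment in HCC827-Del gave 0.37 (adjusted p = 0.0452) and the control lines differed by 0.50 (adjusted p = 0.0175). Without HCC827-Del-TM control replicate 3, treatment in HCC827-Del-TM gave -0.41 (adjusted p = 0.0448) and the control lines differed by 0.48 (adjusted p = 0.0289).

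BAX, an effector gene, was lowest in HCC827-Del-TM after treatment. The leading probe read 8.54, 8.47 and 8.66 in HCC827-Del control and 8.47, 8.47 and 8.39 in HCC827-Del treated. It read 8.42, 7.97 and 8.04 in HCC827-Del-TM control and 7.60, 7.52 and 7.66 in HCC827-Del-TM treated. The HCC827-Del groups overlapped, and replicate 1 of HCC827-Del-TM control reached the range of HCC827-Del treated. BAX fell by 0.55 in HCC827-Del-TM (SE 0.106, adjusted p = 0.00086, limma), while the value in HCC827-Del was -0.11 (95% interval -0.34 to 0.12, adjusted p = 0.42). Between the lines it was -0.41 in the controls (adjusted p = 0.00846, limma) and -0.85 with drugs (adjusted p = 9.93e-06, limma), lower in HCC827-Del-TM each time.

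The difference of the 2 BAX treatment effects was -0.44 (SE 0.15, adjusted p = 0.0322, limma), and this call rested on single arrays. Among the HCC827-Del arrays, removing control replicate 1, control replicate 2, treated replicate 1 or treated replicate 2 ended it. Among the HCC827-Del-TM arrays, removing control replicate 1, treated replicate 1 or treated replicate 2 did so (adjusted p = 0.0527 to 0.0712 over these arrays). The other kept BAX probe, ILMN_1683300, gave -0.48 for this difference (adjusted p = 0.0187, limma), with 0.18 in HCC827-Del (adjusted p = 0.159) and -0.29 in HCC827-Del-TM (adjusted p = 0.0339). The value in HCC827-Del passed the threshold with median scaling (0.35, adjusted p = 0.0315, limma) and cyclic loess (0.30, adjusted p = 0.0261, limma). The call of -0.29 held in 11 of 21 alternatives. It ended without HCC827-Del-TM control replicate 1 or 3 (adjusted p = 0.0705 and 0.125) or treated replicate 2 (adjusted p = 0.146). Among other settings, it also ended with median scaling, cyclic loess, no background correction and the authors' values (adjusted p = 0.0712, 0.0575, 0.0788 and 0.088, limma). That probe also gave -0.35 between the treated lines (adjusted p = 0.00943), which ended without HCC827-Del-TM treated replicate 2 (adjusted p = 0.051), and 0.13 between the controls (adjusted p = 0.377), where it differs in sign from the leading probe. The remaining BAX probe was detected on no array.

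BAK1, the other effector gene, had no call with all arrays and quantile normalization. Its values ran from 5.58 to 6.50 with overlapping groups, and treatment gave 0.29 in HCC827-Del (95% interval -0.06 to 0.63, adjusted p = 0.16) and 0.38 in HCC827-Del-TM (95% interval 0.03 to 0.73, adjusted p = 0.0718). With cyclic loess both passed the threshold, at 0.40 and 0.42 (adjusted p = 0.047 and 0.0426). Median scaling gave 0.44 in HCC827-Del (adjusted p = 0.0258), and trend and robust variance 0.38 in HCC827-Del-TM (adjusted p = 0.0454). In HCC827-Del-TM the value also passed without control replicate 2 (0.49, adjusted p = 0.0392), without treated replicate 2 (0.48, adjusted p = 0.0417) or without HCC827-Del treated replicate 3 (0.38, adjusted p = 0.0484).

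BCL2L1, the anti-apoptotic BCL-XL gene, rose in both lines and was lower in HCC827-Del-TM. The leading probe read 11.15, 11.31 and 11.34 in HCC827-Del control and 11.81, 11.64 and 11.80 after treatment. In HCC827-Del-TM it read 10.73, 10.63 and 10.38 without and 11.40, 11.42 and 11.33 with the drugs. Treated and control arrays of a line did not overlap, and the treated HCC827-Del-TM arrays reached the level of the HCC827-Del controls. The rise was 0.49 in HCC827-Del (SE 0.0961, adjusted p = 0.000867, limma) and 0.80 in HCC827-Del-TM (SE 0.0961, adjusted p = 1.5e-05, limma). The second BCL2L1 probe gave 0.62 and 0.82, both called.

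The 2 BCL2L1 treatment effects differed by 0.32 (95% interval 0.02 to 0.61), which did not pass the threshold (adjusted p = 0.0803, limma) but did so under 5 of 22 alternatives. These were cyclic loess (adjusted p = 0.0417), no background correction (0.0247), the authors' values (0.0242), trend and robust variance (0.0206) and the fit without HCC827-Del-TM control replicate 1 (0.0397). For the second probe it passed without HCC827-Del control replicate 1 (0.37, adjusted p = 0.0257). Between the lines the leading probe was -0.68 in the controls (adjusted p = 9.56e-05, limma) and -0.37 with drugs (adjusted p = 0.00448, limma). The second probe gave -0.34 (adjusted p = 0.0439) and -0.14 (adjusted p = 0.339) for these. Its call in the controls ended under 13 of 21 alternatives, among them leaving out any 1 of the 3 HCC827-Del-TM control arrays (adjusted p = 0.0558 to 0.119).

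MCL1, the short-lived anti-apoptotic partner of PMAIP1 and BCL2L11, gave different answers by its 2 probes. The leading probe read 9.65, 9.66 and 9.80 in HCC827-Del control, 9.47, 9.56 and 9.58 in HCC827-Del treated, 9.92, 9.88 and 9.89 in HCC827-Del-TM control and 9.97, 9.98 and 9.98 in HCC827-Del-TM treated. The other probe, ILMN_1756806, read 7.83, 8.36 and 8.18, then 8.61, 8.58 and 8.75, then 8.54, 8.60 and 8.52, then 8.88, 8.78 and 8.56 in the same group order. The leading probe was 0.44 higher in treated HCC827-Del-TM than in treated HCC827-Del (SE 0.0705, adjusted p = 0.000109, limma), and gave -0.17 for treatment in HCC827-Del (adjusted p = 0.0669) and 0.08 in HCC827-Del-TM (adjusted p = 0.391). By the other probe MCL1 rose by 0.52 in HCC827-Del (SE 0.121, adjusted p = 0.00279, limma), and the treated lines differed by 0.09 (95% interval -0.17 to 0.35). That probe was also 0.43 higher in HCC827-Del-TM control (adjusted p = 0.015), a call that ended without HCC827-Del control replicate 1 (adjusted p = 0.065). The leading probe gave 0.19 there (adjusted p = 0.053). This comparison passed under 9 of 23 alternatives, among them the mean over both kept probes (0.31, adjusted p = 0.00848, limma). By the leading probe alone the lowest adjusted p was 0.0125, with the authors' values (0.18, limma). No direction is therefore given for MCL1 as a gene under treatment in HCC827-Del.

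**Figure D3:**
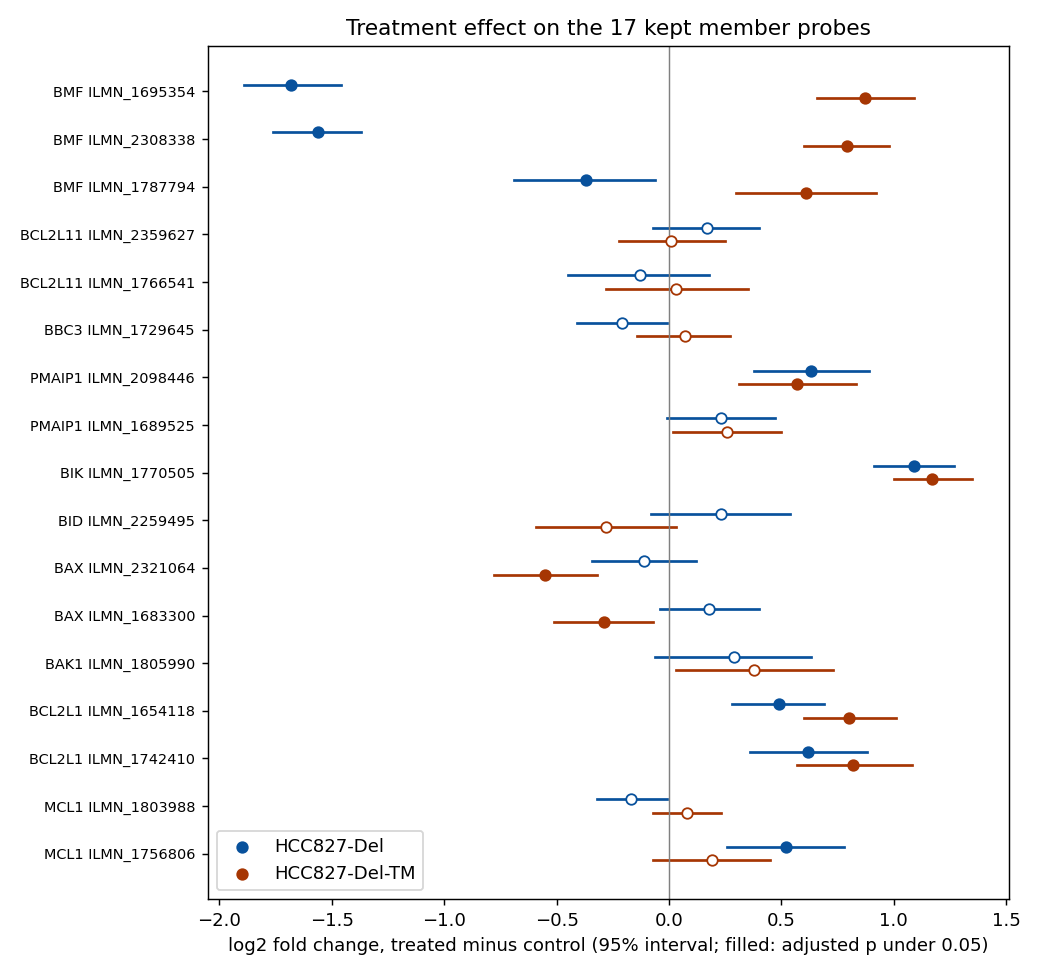
Log2 fold change of treated minus control (horizontal axis) with its 95% interval for the 17 kept probes of the 10 members (vertical axis), in both lines. Filled points have an adjusted p under 0.05. The BMF probes lie on opposite sides of 0 in the 2 lines, the BIK effects of 1.09 and 1.17 overlap, and the 2 MCL1 probes of HCC827-Del lie at -0.17 and 0.52.

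Counted by leading probe, treatment in HCC827-Del raised 3 of the 10 members (PMAIP1, BIK, BCL2L1) and lowered 1 (BMF), where 24.4% of the 11808 genes tested were called higher and 25.8% lower. In HCC827-Del-TM treatment raised 4 members (BMF, PMAIP1, BIK, BCL2L1) and lowered 1 (BAX), against 21.2% and 23.5% of all genes. HCC827-Del-TM control was higher than HCC827-Del control in 2 members (BMF, BBC3) and lower in 2 (BAX, BCL2L1), against 15.6% and 19.4%. Between the treated lines 4 members were higher (BMF, BBC3, BIK, MCL1) and 2 lower (BAX, BCL2L1), against 29.0% and 33.3%. The difference of treatment effects was called higher for BMF and lower for BAX, against 19.7% and 21.7% of all genes. With 10 members these counts lie near the background, and as counts they are no result about the family.

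The median log2 fold change of the members was 0.20 in HCC827-Del, 0.23 in HCC827-Del-TM, 0.10 between the control lines, -0.05 between the treated lines and 0.09 for the difference of effects. Over all genes tested the medians were -0.03, -0.01, -0.03, -0.02 and 0.01. Under median scaling the median of all genes moved to -0.18 between the treated lines and to -0.10 for the difference of effects. The share of called genes that were higher then went from 48.6% to 61.5% for treatment in HCC827-Del, from 46.6% to 30.3% between the treated lines and from 47.5% to 31.8% for the difference of effects. The comparisons share groups, so these counts are not independent of each other.

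Only BMF among the 10 members was called lower in HCC827-Del and higher in HCC827-Del-TM, as were 355 genes in all or 3.01%. BIK, PMAIP1 and BCL2L1 were called higher in both lines, as were 1178 genes or 9.98%.

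**Figure D4:**
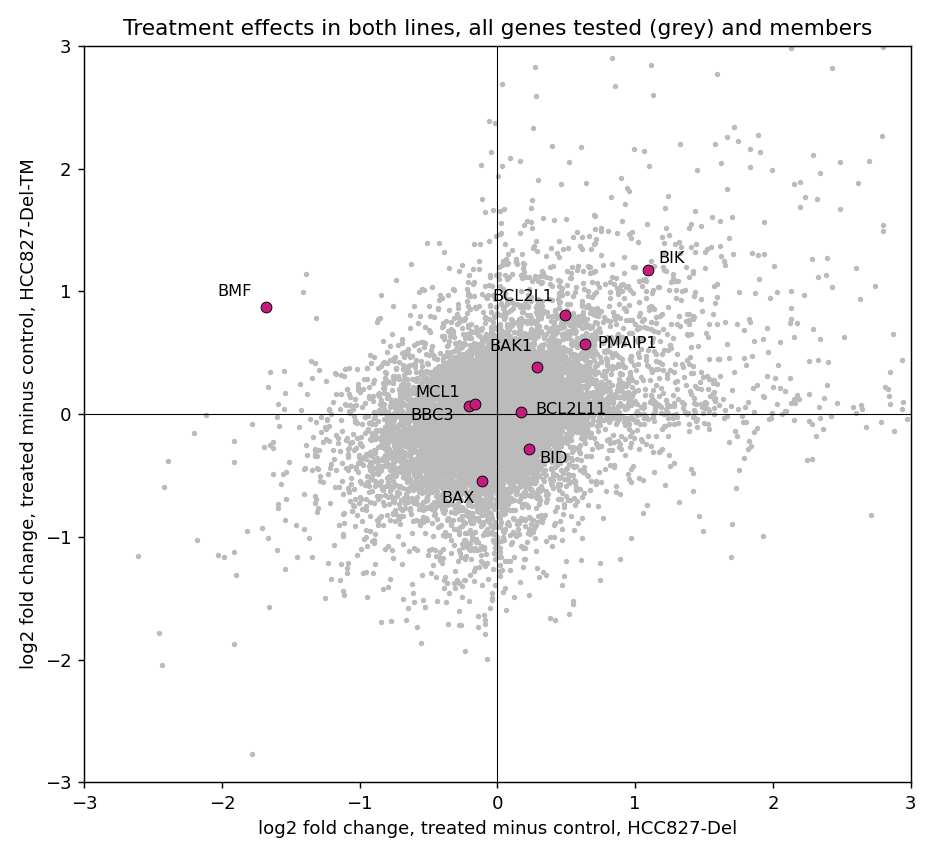
Treatment effect (log2 fold change, treated minus control) in HCC827-Del (horizontal axis) against that in HCC827-Del-TM (vertical axis) for the 11808 genes tested (grey) and the 10 members (labelled), each by its leading probe. BMF lies alone among the members in the upper left at -1.68 and 0.87, BIK in the upper right at 1.09 and 1.17, and 62 genes fall outside the axes.

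Further genes of the same pathway came from 6 lists with 84 symbols, 70 of which had a kept probe. Of the 11 other BCL2-family genes tested, 3 rose and 1 fell in HCC827-Del (median 0.15), against 24.4% and 25.8% of all genes tested. In HCC827-Del-TM 5 rose and 2 fell (median -0.05), against 21.2% and 23.5%. Without HCC827-Del-TM control replicate 3 the count there was 3 higher and 1 lower. HRK, a BH3-only gene, was detected on the 3 HCC827-Del treated arrays and on no other. It read 5.90, 6.08 and 6.06 there and 4.69, 4.87 and 4.74 in the HCC827-Del control, and was at least 2.06-fold higher after treatment (adjusted p = 4.73e-08, limma). HRK passed the detection filter through that group alone, so its call, counted above among the 3 that rose, was largely set by the filter. The same holds for HRK being called lower in treated HCC827-Del-TM than in treated HCC827-Del. BCL2L12, a divergent family member, rose by 0.32 in HCC827-Del (adjusted p = 0.00688, limma) and fell by 0.88 in HCC827-Del-TM (adjusted p = 2.41e-06, limma), the opposite order to BMF. Another kept BCL2L12 probe, ILMN_1752953, gave 0.30 and -0.93, both called. The remaining kept probe, ILMN_1731193, gave 0.36 (adjusted p = 0.162, limma) and -0.17 (adjusted p = 0.54, limma), neither called.

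BNIP3 and BNIP3L, mitophagy receptors with a BH3-like region, were higher in HCC827-Del-TM. BNIP3 read 10.50 to 10.70 in HCC827-Del control and 11.87 to 11.99 in HCC827-Del-TM control, a difference of 1.36 (adjusted p = 1.44e-08, limma), and it was 1.33 higher with drugs (adjusted p = 6.17e-09, limma). BNIP3L was 0.75 higher with drugs (adjusted p = 5.4e-06, limma). Between the treated lines 5 of the 11 genes were higher and 4 lower (median 0.04), against 29.0% and 33.3% of all genes. Between the control lines 2 were higher and 1 lower (median 0.05), against 15.6% and 19.4%, the lower one being HRK, which neither group detected. The 4 probes of BCL2 itself were detected on no array, so BCL2 was not tested.

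Of 12 caspase and apoptosome genes tested, 1 rose and 4 fell in HCC827-Del (median -0.04), and 2 rose and 6 fell in HCC827-Del-TM (median -0.22). All genes tested rose and fell in 24.4% and 25.8% of cases in HCC827-Del, and in 21.2% and 23.5% in HCC827-Del-TM. CASP8, the initiator caspase that cuts BID, rose by 0.84 in HCC827-Del-TM (adjusted p = 0.000149, limma) and was higher there than in HCC827-Del, by 0.89 without drugs (adjusted p = 0.000138, limma) and 1.40 with them (adjusted p = 6.16e-07, limma). In HCC827-Del its value was 0.34 (adjusted p = 0.0476, limma), which ended without control replicate 1 (adjusted p = 0.185) or treated replicate 2 (adjusted p = 0.214). ENDOG, a mitochondrial nuclease, fell by 0.45 in HCC827-Del (adjusted p = 0.000319, limma) and by 1.11 in HCC827-Del-TM (adjusted p = 1.17e-07, limma). CASP6, an executioner caspase, fell by 1.08 in HCC827-Del (adjusted p = 6.69e-07, limma), and its other kept probes gave -0.45 and -0.67. PARP1, a DNA repair enzyme cut by caspases, fell by 0.64 in HCC827-Del-TM (adjusted p = 5.83e-05, limma), against 0.09 in HCC827-Del.

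Of 8 caspase inhibitors and antagonists tested, 1 rose and 1 fell in HCC827-Del (median -0.13), and 0 rose and 1 fell in HCC827-Del-TM (median 0.06), or 2 fell without HCC827-Del-TM treated replicate 3. The shares of all genes that rose and fell were 24.4% and 25.8% in HCC827-Del and 21.2% and 23.5% in HCC827-Del-TM. CFLAR (c-FLIP), which blocks CASP8, fell by 0.93 in HCC827-Del (SE 0.0963, adjusted p = 3.18e-06, limma), against -0.08 in HCC827-Del-TM. BIRC5 (survivin), also a gene of dividing cells, fell by 1.05 in HCC827-Del-TM (SE 0.115, adjusted p = 7.02e-06, limma). Its value in HCC827-Del was -0.22, and there a second probe was called at -0.43 (adjusted p = 0.0196, limma). Between the treated lines 4 of the 8 were higher and 3 lower (median 0.19), against 29.0% and 33.3% of all genes, among them XIAP at 0.59 (adjusted p = 0.00118, limma). Without HCC827-Del-TM treated replicate 2 the count was 3 higher and 1 lower. BIRC7, the 1 gene that rose in HCC827-Del, was detected on the 3 HCC827-Del treated arrays only, too dim for a fold. It passed the detection filter through that group alone. That call, and its call as lower in treated HCC827-Del-TM, were therefore largely set by the filter.

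Of 10 death receptor genes tested, 2 rose and 4 fell in HCC827-Del (median -0.20), and 1 rose and 3 fell in HCC827-Del-TM (median -0.09), where 24.4% and 25.8% of all genes did so in HCC827-Del and 21.2% and 23.5% in HCC827-Del-TM. Between the treated lines 9 were higher in HCC827-Del-TM and 1 lower (median 0.56), against 29.0% and 33.3% of all genes. The control lines had 5 higher and 0 lower (median 0.26), against 15.6% and 19.4%. TNFSF10 (TRAIL), a death ligand, read 6.81, 6.94 and 6.82 in treated HCC827-Del-TM and 5.41, 5.44 and 5.05 in treated HCC827-Del, and no control array detected it. It rose at least 3.5-fold in HCC827-Del-TM (adjusted p = 6.89e-09, limma) and at least 1.26-fold in HCC827-Del (adjusted p = 0.00144, limma). TNFSF10 passed the detection filter through treated arrays alone, which favours such a rise. TNFRSF1A, the main TNF receptor, and TNFRSF10D, a decoy receptor for TNFSF10, were 1.10 and 1.00 higher in treated HCC827-Del-TM (adjusted p = 2.69e-08 and 2.42e-06, limma). TNFRSF25 became undetectable in treated HCC827-Del, at least 1.59-fold lower (adjusted p = 3.51e-05, limma).

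Of 14 transcription factors known to act on BH3-only genes that were tested, 6 rose and 2 fell in HCC827-Del (median 0.17), and 6 rose and 0 fell in HCC827-Del-TM (median 0.04). The background over all genes was 24.4% higher and 25.8% lower in HCC827-Del, and 21.2% higher and 23.5% lower in HCC827-Del-TM. ATF3, a stress-response factor, rose by 1.43 in HCC827-Del (adjusted p = 5.1e-09, limma) and 1.66 in HCC827-Del-TM (adjusted p = 2.69e-09, limma). DDIT3 (CHOP), a factor of endoplasmic reticulum stress, rose by 1.02 (adjusted p = 6.41e-07, limma) and 1.40 (adjusted p = 4.07e-08, limma). JUN rose by 0.96 (adjusted p = 1.12e-06, limma) and 0.89 (adjusted p = 2.98e-06, limma). CEBPB was 0.80 higher in HCC827-Del-TM without drugs (adjusted p = 9.05e-06, limma) and 0.57 with them (adjusted p = 6.36e-05, limma).

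Of 15 partners and turnover factors tested, 2 rose and 5 fell in HCC827-Del (median -0.12), and 2 rose and 4 fell in HCC827-Del-TM (median 0.04). Over all genes these shares were 24.4% and 25.8% in HCC827-Del, and 21.2% and 23.5% in HCC827-Del-TM. The count in HCC827-Del-TM was 3 without its treated replicate 1 or 3. MAP3K5 (ASK1), a stress kinase, was 1.23 higher in HCC827-Del-TM control (adjusted p = 1.11e-07, limma) and 1.34 with drugs (adjusted p = 1.42e-08, limma). ITPR1, a calcium channel bound by BCL2-family proteins, rose by 1.11 in HCC827-Del (adjusted p = 4.87e-06, limma), against 0.10 in HCC827-Del-TM. HUWE1 and FBXW7, which take part in the ubiquitination of MCL1, were 0.75 and 0.67 higher in treated HCC827-Del-TM (adjusted p = 8.37e-07 and 5.01e-05, limma).

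**Figure D5:**
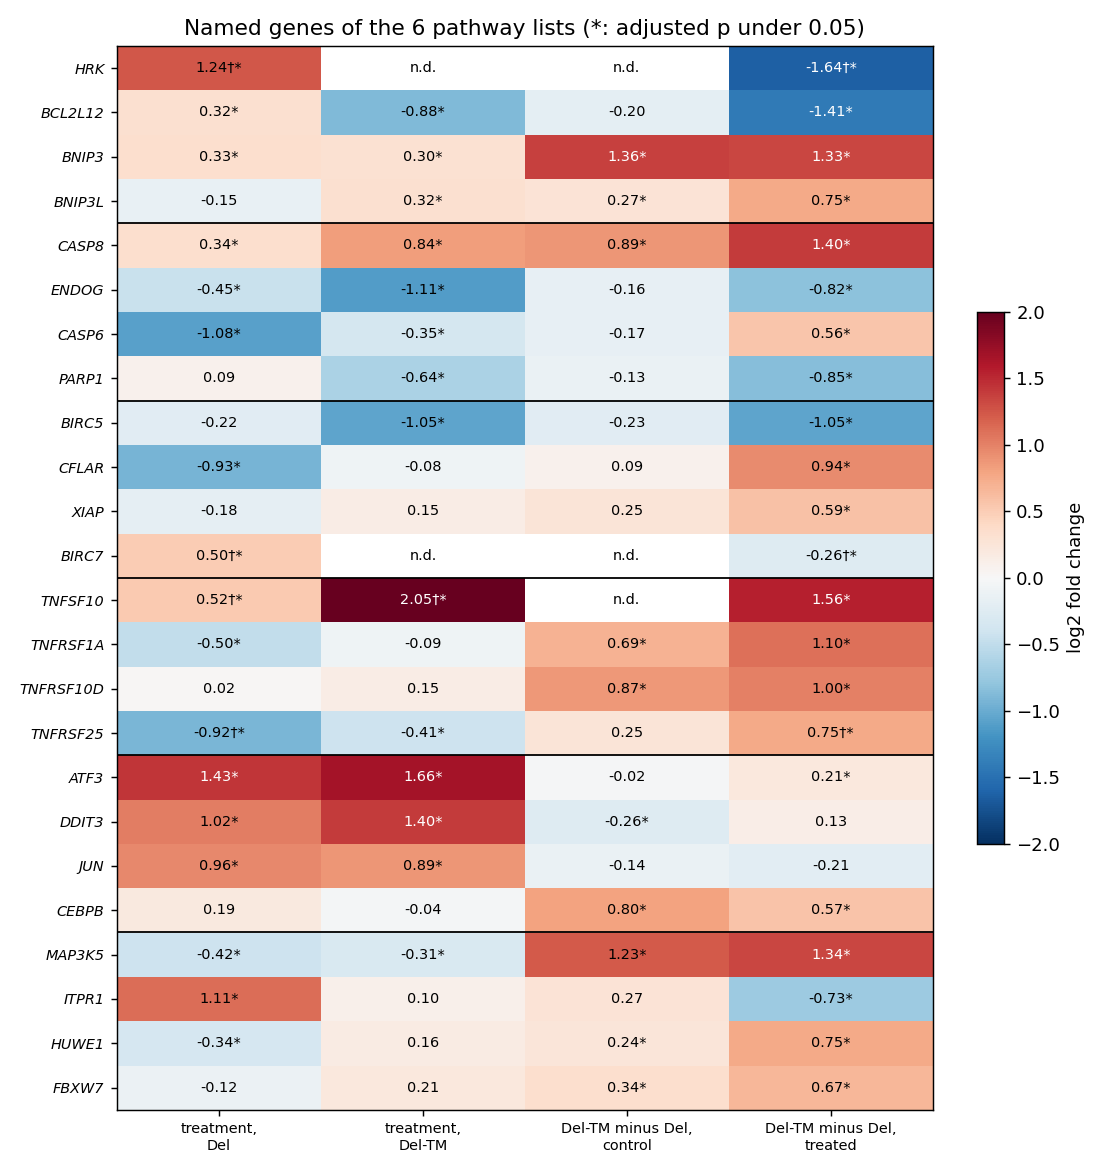
Log2 fold changes of the 24 named pathway genes (rows, 4 from each of 6 lists) in 4 comparisons (columns), with colour from -2 to 2 and an asterisk for an adjusted p under 0.05. A dagger marks a fitted value where 1 group was detected on no array, and n.d. marks pairs where neither group was. ATF3, DDIT3 and JUN are raised by treatment in both lines, while TNFSF10 and CASP8 are highest in treated HCC827-Del-TM.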

How the data were processed

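Biotin-labelled RNA of 12 cultures was hybridised to 1-colour Illumina arrays, per the labels' protocols. The authors deposited a signal intensity per probe and array without background subtraction or scaling between arrays, and a detection p-value beside it, per the file headers and values. The authors' deposited log2 values, quantile-normalized between arrays as the values show, served as an alternative. The software for these steps was not given in the sources used here.

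Signals were corrected with nec of limma 3.58.1 (noise estimated by way of the detection p-values, offset 16; R 4.3.3, statmod 1.5.0), quantile-normalized and put on the log2 scale. Probes detected at p under 0.01 on at least 3 arrays were kept, 19833 in all and 15667 with 1 gene symbol. A model with 1 coefficient per group was fitted to all arrays with lmFit and eBayes, and 5 contrasts were tested two-sided, adjusted by Benjamini-Hochberg, at 0.05. Where a group detected a probe on no array, a fold is a bound ("at least") against the higher of each array's lowest detected signal and the probe's own. An array's median signal was between 95.4 and 104, and the number of arrays limits the precision.

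The members and lists were chosen with earlier results of these data known. Named were all members, up to 4 called genes per list by absolute log2 fold change in the first 4 contrasts, the 5 genes nearest to BMF, and EGFR and CDKN1A as checks. Scripts were tested on simulated data.

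Deviations from the group means correlated at -0.0316 to 0.052 in the 18 pairs of arrays with the same replicate number, so the numbers were not taken to pair cultures. The alternatives changed the scaling, background correction, starting values, detection filter, use of a gene's probes, variance model, groups in the fit and replicate block, or left out each array.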

Additional observations from a re-analysis of the deposited data

Results flagged for a closer look

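The treatment effect differed between the 2 lines, by limma's test of the difference itself (HCC827-Del-TM minus HCC827-Del, adjusted p under 0.05), for 5 probes of 2 members. For BMF the differences were 2.55, 2.35 and 0.99 by its 3 kept probes, each lower after treatment in HCC827-Del and higher in HCC827-Del-TM. The third, dim probe reached the detection filter only through HCC827-Del-TM treated. In HCC827-Del it was detected on 1 control and 0 treated arrays, and its call there held in 8 of 20 alternatives. For BAX they were -0.44 (adjusted p = 0.0322) and -0.48 (adjusted p = 0.0187), with effects of -0.11 and 0.18 in HCC827-Del and -0.55 and -0.29 in HCC827-Del-TM.

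Among the named pathway genes, the difference was negative for HRK, BCL2L12 at -1.20, ITPR1 at -1.01, BIRC5 at -0.83, PARP1 at -0.72 and ENDOG at -0.65. HRK, with a fitted -1.32, was kept through the HCC827-Del treated arrays alone and detected on no HCC827-Del-TM array. It was positive for TNFSF10 at 1.54, CFLAR at 0.85, CASP6 at 0.73, CASP8, TNFRSF25 and HUWE1 at 0.50 each, BNIP3L at 0.47, TNFRSF1A at 0.42 and DDIT3 at 0.39. By further probes BIRC5 gave -0.18 (adjusted p = 0.5), BCL2L12 -0.53 (adjusted p = 0.163) by probe ILMN_1731193, CASP6 0.18 (adjusted p = 0.464) by probe ILMN_1659350, and CASP8 0.47 and 0.17 (adjusted p = 0.0588 and 0.535). Single arrays ended some of these calls, as for CASP8 without HCC827-Del treated replicate 1 (adjusted p = 0.104), TNFRSF25 without HCC827-Del treated replicate 3 (adjusted p = 0.0893) and DDIT3 without HCC827-Del-TM treated replicate 1 (adjusted p = 0.064).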

How the results depend on the processing

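Over all alternatives, 0 of the member values and 0 of the named pathway values changed the direction of a call. Of the member values, 1735 stayed on their side of the threshold, 62 lost a call and 56 gained one. For the named pathway genes these numbers were 2591, 94 and 31. The difference of treatment effects by the leading BMF probe ran from 1.72 to 2.64 over 22 alternatives, among them the mean over its kept probes, with an adjusted p of at most 1.88e-07 (limma). The number of members called for the difference of effects, 2 in the main setting, was 4 without background correction, with the authors' values and with trend and robust variance, 1 without the detection filter, and 1 to 3 on leaving out each array. The other 4 counts of members did not move by over 1.5 times the main count under any alternative run. That for treatment in HCC827-Del reached this limit under median scaling, with 6 called in place of 4.

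Counts over the pathway lists depended on the scaling. Under median scaling the calls fell from 8 to 5 of the transcription factors and from 7 to 4 of the partners for treatment in HCC827-Del, and from 7 to 4 of the other BCL2-family genes and from 6 to 2 of the partners in HCC827-Del-TM. Between the control lines they fell from 5 to 3 of the caspase genes, from 3 to 1 of the other family genes, from 7 to 4 of the partners and from 7 to 4 of the transcription factors. For the difference of effects they fell from 6 to 3 of the death receptor genes and from 7 to 2 of the partners. Without the detection filter 3 of the death receptor genes were called for the difference of effects, with only the groups compared 3 of the partners for treatment in HCC827-Del-TM, and among probes detected on all 12 arrays 1 of the caspase inhibitors for treatment in HCC827-Del, in place of 6, 6 and 2. Of 30 list counts, leaving out 1 array moved 11 by over 1.5 times, as with the caspase genes between the control lines, at 2 without HCC827-Del control replicate 1. The cause was not tested.

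With the replicate number as a block, 4, 6, 4, 6 and 3 members were called for treatment in HCC827-Del, treatment in HCC827-Del-TM, control lines, treated lines and difference of effects, against 4, 5, 4, 6 and 2 without it. By deviations from the group means, 5 of 12 arrays had their highest mean correlation with other groups' arrays of their own number. The block gave BID calls of -0.28, 0.35 and -0.51 for treatment in HCC827-Del-TM, control lines and difference of effects (adjusted p = 0.0381, 0.0182 and 0.0135, limma). For treatment in HCC827-Del-TM the dimmer PMAIP1 probe gained a call (0.26, adjusted p = 0.0318, limma). Calls ended for the third BMF probe in HCC827-Del (adjusted p = 0.0627), BBC3 between the control lines (0.0534) and BAX probe ILMN_1683300 in HCC827-Del-TM (0.0502). BIK between the treated lines stood at the threshold (adjusted p = 0.05). The slide as a block was not run, since the headers name none. Dim probes (BID, HRK, the third BMF probe) limit the rest.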
